A study of Homo sapiens with 8 samples.

Results

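The 10 tetraspanin genes described here are TSPAN1, TSPAN3, TSPAN4, TSPAN7, TSPAN12, TSPAN13, TSPAN14, TSPAN15, CD9 and CD151. They were taken by gene name from the deposited tables, which list 48162 genes and 33 tetraspanin genes in all. Each of the 10 names occurred once, all 10 had a value above 0 in every library, and all 10 passed the filter on low values (a mean of at least 1 FPKM). FPKM divides the reads of a gene by its length and by the size of the library, so that levels of different genes can be compared. TSPAN12 was chosen with its values after knockdown already known, so knockdown values of the 10 genes are given as a description with no test. Which values led to the choice of TSPAN7 and the other genes is not recorded.

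The study profiled total RNA of KYSE70 and KYSE450, both established lines of human esophageal squamous cell carcinoma, at passages 5 to 10. The long noncoding RNA NMR was overexpressed from pcDNA3.1, a plasmid brought in with Lipofectamine 3000, or knocked down with lentivirus that had been packaged in HEK 293T cells, a human embryonic kidney line. Each manipulation had a control of its own, called here the plasmid control and the lentiviral control. The 4 groups hold 2 libraries each, 1 from KYSE70 and 1 from KYSE450, so no line is replicated within a group. No p-value here measures the spread between replicate cultures. For the manipulations, p-values rest on how far the 2 lines disagree on the 2 effects, pooled over both. Each manipulation's p-values thus also depend on the libraries of the other. For cell line and controls, p-values rest on departures from 1 line difference shared by all 4 groups. Whether the transduced cells were a pool or a clone, what the controls carried and which sequences were targeted, the sources used here do not give. The level of NMR itself was not analysed here.

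Recovered reads per library ran from 26401805 to 37937856. The KYSE70 library labelled knockdown stood apart from the others: 8.63% of its summed FPKM came from 13 mitochondrial genes, against 3.84 to 5.75% in the other 7 libraries. In that library the change against its control was also related to base composition, with a Spearman correlation of -0.483 between change and GC content across 13914 genes, against 0.042 for the KYSE450 pair. Genes are not independent replicates, and this correlation is a description. Squamous markers summed to between 7325 and 25707 FPKM in all libraries, led by the basal keratin gene KRT5. All 5 leukocyte markers stayed under 1 FPKM in every library. So did CDH5, KDR and CLDN5 among 4 endothelial markers in the files, and COL1A2, DCN and PDGFRB among 6 fibroblast markers. The others did not: COL1A1 stood between 20.65 and 37.04 FPKM, and COL3A1 reached 21.88, VWF 4.25 and LUM 1.09 FPKM. The 3 melanocytic markers MLANA, PMEL and SOX10 summed to 3.91 to 10.75 FPKM. Among squamous markers, KRT14 in KYSE70 ranged from 3.20 FPKM in the plasmid control to 38.31 with knockdown. In KYSE450 it ranged from 370.9 to 1211 FPKM.

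Tetraspanins are small proteins that cross the membrane several times and gather integrins, proteases and receptors into membrane microdomains; several are also abundant on extracellular vesicles. TSPAN12 is known as a component of the norrin receptor, where it works with the Wnt receptors FZD4 and LRP5 to raise beta-catenin signalling, and its loss causes a disease of retinal vessels. CD151 binds the laminin-binding integrins of epithelia, CD9 binds the immunoglobulin-like proteins IGSF8 and PTGFRN, and the TspanC8 group, which includes TSPAN14 and TSPAN15, carries the protease ADAM10 to the cell surface.

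In KYSE70 the order of the median levels was CD9, TSPAN3, CD151, TSPAN12, TSPAN14, TSPAN15, TSPAN7, TSPAN1, TSPAN13 and TSPAN4. Medians over the 4 KYSE70 libraries ran from 440.8 FPKM for CD9 to 14.18 FPKM for TSPAN4. In KYSE450 the median order was CD9, CD151, TSPAN13, TSPAN3, TSPAN4, TSPAN14, TSPAN12, TSPAN15, TSPAN1 and TSPAN7, from 457.4 FPKM down to 1.318 FPKM. CD9 led in both lines, TSPAN13 stood next to last in KYSE70 and above TSPAN3 in KYSE450, and TSPAN7, above TSPAN1 in KYSE70, stood last in KYSE450. In the order of the means, TSPAN12 came second in KYSE70, and each gene overlapped the next one over its 4 libraries. CD9 met TSPAN12 only through the knockdown library of TSPAN12, at 491.1 FPKM. The lowest CD9 value in KYSE70 was 389.3 FPKM, against at most 216.5 for TSPAN3 and 224.9 for CD151. In KYSE450, TSPAN13 overlapped with TSPAN3, and TSPAN12, TSPAN15, TSPAN1 and TSPAN7 each with the next, while the other neighbours did not overlap. Since whole cultures were measured, fewer cells that express a gene and less RNA per cell cannot be told apart. Together the 10 genes made up 57.9 to 78.0% of the summed FPKM of the 33 tetraspanin genes. TSPAN12 made up 29.2% of the summed level of the 10 genes in the KYSE70 knockdown library and 10.4 to 16.4% in the other 3 of that line. In KYSE450 it made up 0.24% in the lentiviral control and 0.66 to 0.98% in the other 3 libraries.

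**Figure D1:**
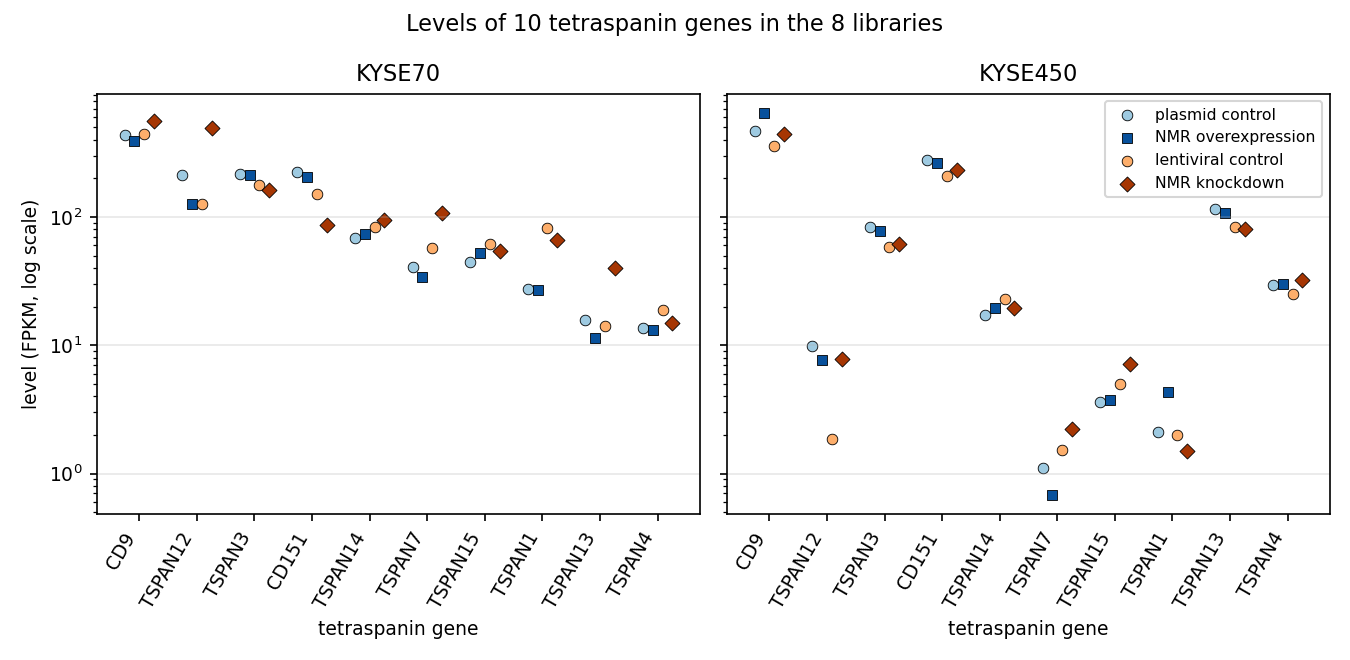
Level of each of the 10 tetraspanin genes in FPKM on a log axis, KYSE70 on the left and KYSE450 on the right; each point is 1 library and colours and shapes give the 4 groups. TSPAN12, TSPAN7, TSPAN1 and TSPAN15 lie lower in every KYSE450 library than in any KYSE70 library, and TSPAN13 lies higher.

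The first comparison set KYSE70 against KYSE450 over all 4 groups. Of the 10 genes, 9 differed between the lines in limma's test with Benjamini-Hochberg adjustment over 14311 genes, 6 of them higher in KYSE70 (TSPAN1, TSPAN3, TSPAN7, TSPAN12, TSPAN14 and TSPAN15) and 3 lower (TSPAN4, TSPAN13 and CD151). The background is high: 54.0% of all genes tested passed the same threshold, 26.6% higher and 27.4% lower in KYSE70. Differences are KYSE70 minus KYSE450 in units of log2(FPKM + 1), in which differences of low genes come out too small. The median difference of the 10 genes was 1.71, against -0.02 over all genes tested and -0.30 over the 13 of 23 other tetraspanin genes that passed the filter. The 4 KYSE70 libraries all lay above the 4 KYSE450 libraries for the 6 higher genes, as for 24.1% of all genes, and all below for TSPAN4 and TSPAN13, as for 24.5%. Of the 13 others, 2 were higher in KYSE70 (TSPAN5 and CD37) and 3 were lower (TSPAN6, TSPAN10 and TSPAN31).

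**Figure D2:**
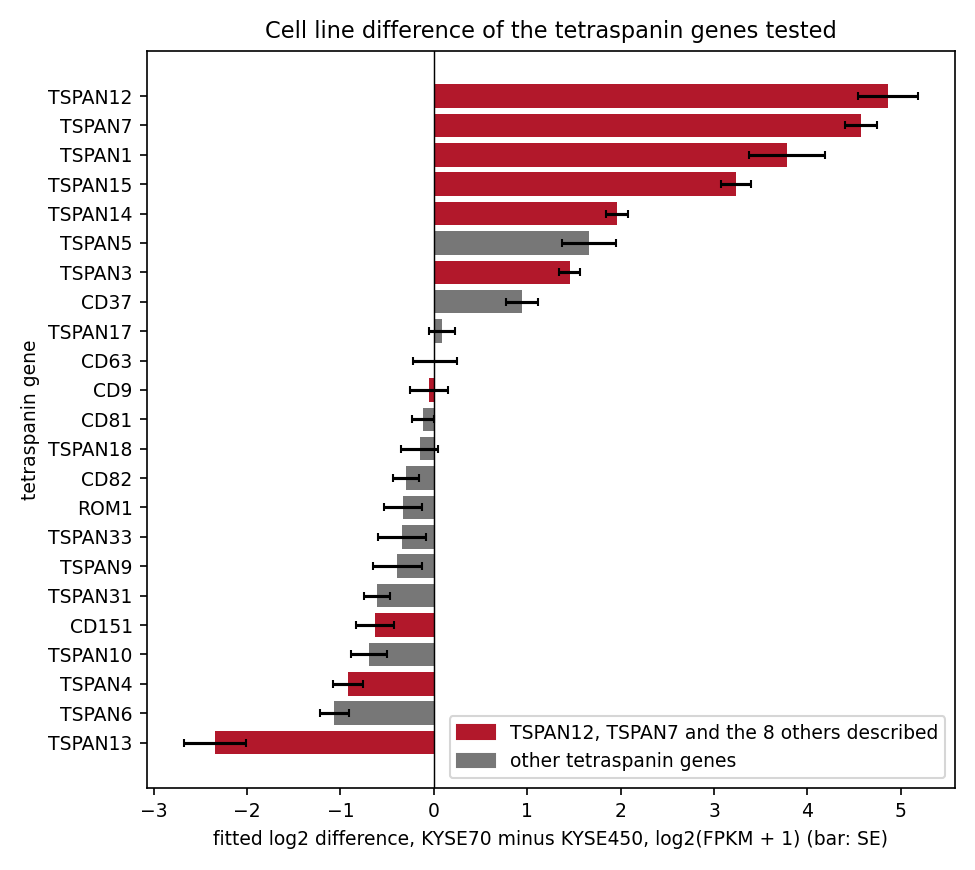
Fitted difference between the lines (KYSE70 minus KYSE450, log2(FPKM + 1) scale) for the 23 tetraspanin genes tested, with bars for the standard error; red marks the 10 genes described and grey the other 13. TSPAN12 at 4.86 and TSPAN7 at 4.58 head the plot, TSPAN13 at -2.35 ends it, and CD9 lies at -0.05.

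TSPAN12, the norrin receptor component, was abundant in KYSE70 and low in KYSE450. In KYSE70 it stood at 214.5 FPKM in the plasmid control, 125.3 with overexpression, 126.9 in the lentiviral control and 491.1 with knockdown. In KYSE450 the corresponding levels were 9.91, 7.68, 1.86 and 7.84 FPKM. The KYSE70 level was thus highest with knockdown, whereas in KYSE450 the lentiviral control was the low library and the plasmid control was the highest. All 4 KYSE70 libraries lay above all 4 KYSE450 libraries, and the fitted line difference was 4.86 (SE 0.32, limma adjusted p 3.65e-05). Its gene (ENSG00000106025) lies on chromosome 7 from 120787320 to 120858402, minus strand, in GRCh38 coordinates of GENCODE 29, is annotated as protein coding and shares no exon base with another gene.

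**Figure D3:**
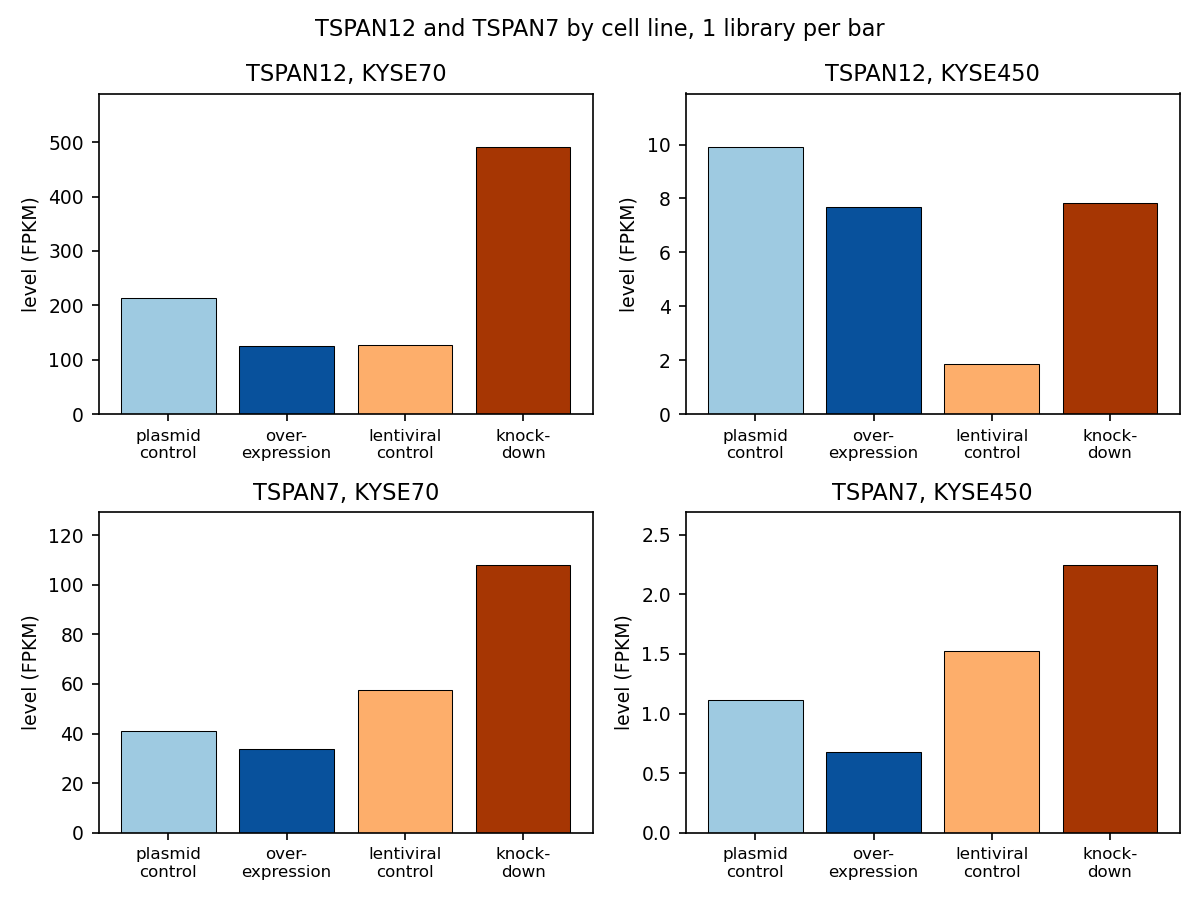
Level in FPKM of TSPAN12 (top) and TSPAN7 (bottom) in KYSE70 (left) and KYSE450 (right), 1 library per bar, each panel with its own axis from 0. The knockdown bar is above the lentiviral control in all 4 panels and the overexpression bar is below the plasmid control in all 4, while TSPAN12 with knockdown in KYSE450 (7.84 FPKM) does not reach the plasmid control (9.91 FPKM).

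Against the lentiviral control, TSPAN12 with knockdown stood 3.87-fold higher in KYSE70 (95% exact interval 3.73 to 4.01) and 4.21-fold higher in KYSE450 (3.26 to 5.49, from 256 and 79 reads). These intervals, and all others on ratios of 2 libraries, cover counting error only, since each side of a ratio is 1 library. As far as the labels say, the libraries carry no molecular identifiers that would tell copies from molecules. Copied reads could therefore make even these intervals too narrow. Against the plasmid control, the same knockdown libraries stood at 2.29-fold in KYSE70 and 0.791-fold in KYSE450 (0.667 to 0.937). So the KYSE450 knockdown library was above one control and below the other. Overexpression stood at 0.584-fold of the plasmid control in KYSE70 and 0.775-fold in KYSE450, with intervals of 0.562 to 0.607 and 0.653 to 0.92. The fitted overexpression difference of TSPAN12 was -0.55 (SE 0.17), which did not pass limma's test (adjusted p 1). Its SE rests in part on the knockdown pairs from which TSPAN12 was chosen, so this result is a description too. The lentiviral control stood at 0.592-fold of the plasmid control in KYSE70 and 0.188-fold in KYSE450. The fitted difference of -1.34 (SE 0.46) did not pass either (limma adjusted p 0.272). TSPAN12 was chosen from the knockdown ratio over this same lentiviral control, so that p is a description.

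TSPAN12's knockdown difference was 1.94 in KYSE70 and 1.63 in KYSE450 on the log2(FPKM + 1) scale. It was 1.74 and 1.63 once a trend on GC content had been removed from each library, an adjustment chosen after seeing the data. The integrin gene ITGB4, picked after its values were seen because it is high in KYSE70 and near 0 in KYSE450, gave a second check on the low KYSE450 values. ITGB4 in KYSE450 was 0.611, 1.09, 0.25 and 0.592% of its KYSE70 level in the plasmid control, overexpression, lentiviral control and knockdown groups. Taking that share of the KYSE70 level off left KYSE450 TSPAN12 at 8.6, 6.32, 1.54 and 4.93 FPKM in the same order, and left the lentiviral control as the lowest library. The part of such a trace of the other line in these values was not tested.

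The partners of TSPAN12 were measured at uneven levels. The norrin gene NDP was listed at 0 in every library other than KYSE450 with overexpression, where it stood at 0.0285 FPKM. FZD4 was low in KYSE70, at 0.379, 0.528, 0.717 and 1.38 FPKM from plasmid control to overexpression, lentiviral control and knockdown, and stood at 2.58, 2.82, 3.55 and 5.17 FPKM in KYSE450. It was thus lower in the line where TSPAN12 was high, with a line difference of -1.37 (SE 0.14, limma adjusted p 0.000279). LRP5 stood between 53.63 and 87.16 FPKM over the 8 libraries, and its line difference of 0.29 (SE 0.13) did not pass (limma adjusted p 0.106). Of 12 norrin and Wnt receptor genes listed, 11 were tested. FZD1, FZD3 and FZD7 (3 of 11) were higher in KYSE70, against 26.6% of all genes. FZD4 and FZD10 (2 of 11) were lower, against 27.4%. For overexpression, knockdown or the controls 0 of 11 passed, as did 0% of all genes. With knockdown, 6 of the 11 stood higher than the lentiviral control in both lines, FZD4 among them at 1.92-fold in KYSE70 and 1.45-fold in KYSE450, against 27.1% of all genes.

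Of 12 listed target genes of beta-catenin, 7 passed the filter. For either manipulation 0 of the 7 passed the test, as did 0% of all genes. APCDD1, a membrane inhibitor of Wnt signalling, showed a pattern of low lentiviral control in KYSE450, as TSPAN12 did, at 8.04, 14.38, 0.424 and 2.27 FPKM in the 4 groups. In KYSE70 it did not exceed 0.824 FPKM. Its overexpression difference was 0.60 (SE 0.21) and its knockdown difference was 0.87 (SE 0.21), neither past limma's threshold (adjusted p 1 and 0.293). NKD2, another inhibitor in that pathway, stood lower with knockdown in both lines, by -0.54 in KYSE70 and -0.33 in KYSE450, with a limma adjusted p of 0.36. Between the lines, 3 of the 7 were higher in KYSE70 (TNFRSF19, ZNRF3 and RNF43) and 2 lower (TCF7 and APCDD1). The shares over all genes were 26.6% higher and 27.4% lower.

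TSPAN7 is best known from neurons, where it takes part in the trafficking of glutamate receptors, and its mutation causes an X-linked intellectual disability. In KYSE70 it stood at 41.06 FPKM in the plasmid control, 33.87 with overexpression, 57.75 in the lentiviral control and 107.8 with knockdown. In KYSE450 it was low, at 1.11, 0.678, 1.52 and 2.24 FPKM, values that rest on 35, 23, 67 and 76 reads. The order of the 4 groups was the same in both lines: overexpression lowest, then the plasmid control, the lentiviral control and knockdown. The ranges of the 2 lines were far apart, with a fitted difference of 4.58 (SE 0.17, limma adjusted p 4.23e-06).

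Knockdown over lentiviral control was 1.87 for TSPAN7 in KYSE70 (95% exact interval 1.76 to 1.98) and 1.47 in KYSE450 (1.05 to 2.08). Overexpression over plasmid control was 0.825 in KYSE70 (0.763 to 0.891) and 0.609 in KYSE450 (0.343 to 1.06). The KYSE450 interval of the second ratio includes 1, so a difference was not detectable there at this depth. The fitted overexpression difference of -0.30 (SE 0.18) did not pass limma's test (adjusted p 1). Unlike TSPAN12, TSPAN7 stood higher in the lentiviral control than in the plasmid control, 1.41-fold in KYSE70 and 1.36-fold in KYSE450, though the KYSE450 interval of 0.894 to 2.12 includes 1 and the fitted difference of 0.37 (SE 0.24) did not pass (limma adjusted p 0.523). After the ITGB4 share of the KYSE70 level was taken off, KYSE450 TSPAN7 was left at 0.863, 0.309, 1.38 and 1.6 FPKM. TSPAN7 (ENSG00000156298, chromosome X from 38561370 to 38688920, plus strand) shares 676 exon bases, 21.7% of its total, with AF241726.2 on the same strand, so its count is uncertain by what the authors' counting made of that overlap.

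TSPAN7 and TSPAN12 were the 2 of the 10 genes that stood lower with overexpression and higher with knockdown in both lines. This pattern was held by 6.46% of all genes tested, and TSPAN12 was chosen from the knockdown values, so nothing is read from the count. The 2 manipulations have separate controls.

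CD151 and CD9 were the integrin-associated and immunoglobulin-partner members, and both were abundant in both lines. CD151 stood at 224.9, 206.5, 151.9 and 87.08 FPKM in KYSE70 in the order plasmid control, overexpression, lentiviral control and knockdown. In KYSE450 it stood at 280.1, 262.6, 209.0 and 234.6 FPKM. The KYSE70 knockdown library was the lowest of the 8, and the ranges of the 2 lines overlapped. Its knockdown ratio was 0.573 in KYSE70 (0.543 to 0.605) and 1.12 in KYSE450 (1.08 to 1.16), opposite in sign. CD151 is rich in GC (62.6% of its longest transcript), and the KYSE70 knockdown difference of -0.80 became -0.42 with the GC trend removed, while the KYSE450 difference moved from 0.17 to 0.15. The line difference of -0.64 (SE 0.20, limma adjusted p 0.0344) was the least firm of the 9 called: the adjusted p was 0.0919 with no filter, 0.0587 with median-ratio scaling and 0.0776 with no group terms, and it was 0.0828 and 0.0824 without the lentiviral control library of KYSE70 or of KYSE450. Over all alternatives run it lay between 0.0178 and 0.0919. The size of the line difference was uneven over the groups. CD151 in KYSE450 stood at 1.25, 1.27 and 1.38 times its KYSE70 level in the plasmid control, overexpression and lentiviral control groups, and at 2.69 times with knockdown. CD151 shares 257 exon bases, 6.5% of its total, with POLR2L on the opposite strand, and without a stated strand setting reads of the 2 genes cannot be told apart there.

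CD9 stood at 436.4, 389.3, 445.1 and 561.7 FPKM in KYSE70 and at 468.5, 651.5, 357.4 and 446.3 FPKM in KYSE450. The ranges overlapped and the line difference was -0.05 (SE 0.20, limma adjusted p 0.855). Its sign turned to 0.18 without either overexpression library. CD9 with knockdown was 1.26-fold its lentiviral control in KYSE70 and 1.25-fold in KYSE450. With overexpression it was 0.892-fold its control in KYSE70 (0.87 to 0.915) and 1.39-fold in KYSE450 (1.36 to 1.42), so the lines went in opposite directions.

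Among the partners of these 2 proteins, the integrin subunits differed between the lines in both directions. ITGB1 was higher in KYSE70 by 1.64 (SE 0.14), ITGA3 lower by -0.85 (SE 0.16) and ITGA6 lower by -0.53 (SE 0.14), with limma adjusted p of 9.97e-05, 0.00432 and 0.0167. ITGB4, the partner of ITGA6 in hemidesmosomes, lay between 117.1 and 145.5 FPKM in KYSE70 but between 0.331 and 1.58 FPKM in KYSE450, a difference of 6.19 (SE 0.17, limma adjusted p 1.82e-06). IGSF8 was lower in KYSE70 by -0.66 (SE 0.13) and PTGFRN higher by 0.44 (SE 0.13), with limma adjusted p of 0.00505 and 0.0253. In all, 5 of 17 partner genes were higher in KYSE70 and 8 were lower, against 26.6% and 27.4% of all genes. For overexpression, knockdown or the controls 0 of 17 passed, as did 0% of all genes. HBEGF, a membrane growth factor known to bind CD9, had the smallest knockdown p of the list: it stood at 0.835, 1.17, 4.58 and 1.57 FPKM in KYSE70 and 0.889, 1.65, 23.43 and 5.69 FPKM in KYSE450, so the lentiviral control was the high library in both lines. Its knockdown difference was -1.49 (SE 0.22, limma adjusted p 0.199).

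The TspanC8 members TSPAN14 and TSPAN15 were both higher in KYSE70. TSPAN14 stood at 69.05, 73.61, 83.43 and 94.71 FPKM in KYSE70 in the order plasmid control, overexpression, lentiviral control and knockdown, and at 17.33, 19.52, 22.77 and 19.59 FPKM in KYSE450. TSPAN15 stood at 44.9, 52.33, 61.85 and 54.71 FPKM in KYSE70 and at 3.64, 3.76, 4.99 and 7.21 FPKM in KYSE450. No KYSE450 library reached a KYSE70 library for either gene, and the line differences were 1.96 (SE 0.12, limma adjusted p 2.71e-05) and 3.24 (SE 0.16, limma adjusted p 1.12e-05). Both genes also stood higher in the lentiviral than in the plasmid control of both lines. For TSPAN15 this was 1.38-fold and 1.37-fold, KYSE70 first, and its fitted difference of 0.41 (SE 0.23) did not pass (limma adjusted p 0.449). With knockdown TSPAN15 was 0.885-fold its control in KYSE70 and 1.44-fold in KYSE450 (1.15 to 1.81), and with the GC trend removed the KYSE70 difference moved from -0.17 to 0.09. TSPAN14 with knockdown was 1.14-fold its control in KYSE70 and 0.86-fold in KYSE450.

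All 6 TspanC8 genes passed the filter; besides TSPAN14 and TSPAN15, TSPAN5 was higher in KYSE70 by 1.66 (SE 0.29) and TSPAN10 lower by -0.69 (SE 0.19), with limma adjusted p of 0.00279 and 0.0181. TSPAN33 stood at 5.22 FPKM in the plasmid control and 22.18 in the lentiviral control of KYSE70, and at 12.65 and 15.91 FPKM in KYSE450; the fitted difference of 1.10 (SE 0.36) did not pass limma's test (adjusted p 0.262). TSPAN17 stood between 29.43 and 43.59 FPKM. Their shared cargo ADAM10 covered 130.3 to 167.3 FPKM in KYSE70 against 79.8 to 99.26 in KYSE450, a difference of 0.69 (SE 0.11, limma adjusted p 0.00178). With knockdown ADAM10 differed from its control by -0.14 in KYSE70 and 0.05 in KYSE450.

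TSPAN1, an epithelial member, showed a step between the delivery arms in KYSE70. It stood at 27.7 FPKM in the plasmid control and 26.88 with overexpression, against 82.18 in the lentiviral control and 66.55 with knockdown. In KYSE450 the levels were 2.12, 4.34, 2.01 and 1.51 FPKM, from 52, 115, 69 and 40 reads. The lentiviral over plasmid ratio was 2.97 in KYSE70 (2.73 to 3.23) and 0.946 in KYSE450 (0.651 to 1.38), so the step was not seen in the second line. TSPAN1 was higher in KYSE70 by 3.78 (SE 0.41, limma adjusted p 0.000332). It was the one member lower with knockdown in both lines, at 0.81-fold and 0.753-fold, the second with an interval of 0.497 to 1.13. Overexpression gave 2.05-fold in KYSE450 (1.46 to 2.9) and 0.97-fold in KYSE70 (0.876 to 1.07).

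The windows of 250 bases before the RefSeq start of TSPAN1 and TSPAN15 are shown. Both genes are higher in KYSE70 in all 4 groups, and these windows share at most 14 bases with an exon of the gene in GENCODE 29. TSPAN14, also higher in KYSE70 in all 4 groups, has windows that share 0 bases with its exons, which are not shown. The windows of TSPAN12 and TSPAN13 lie mostly in first exons of that annotation and are not shown, and only their composition and motif counts are given. Both sequences are from RefSeq on GRCh38.p14, plus strand, 5′ to 3′, with capitals for the GC box (GGGCGG on either strand).
TSPAN1, chr1:46174837-46175086: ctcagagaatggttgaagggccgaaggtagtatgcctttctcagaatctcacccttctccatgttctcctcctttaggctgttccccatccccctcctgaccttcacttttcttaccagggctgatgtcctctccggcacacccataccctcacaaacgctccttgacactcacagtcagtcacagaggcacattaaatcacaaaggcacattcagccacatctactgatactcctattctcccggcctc
TSPAN15, chr10:69451215-69451464: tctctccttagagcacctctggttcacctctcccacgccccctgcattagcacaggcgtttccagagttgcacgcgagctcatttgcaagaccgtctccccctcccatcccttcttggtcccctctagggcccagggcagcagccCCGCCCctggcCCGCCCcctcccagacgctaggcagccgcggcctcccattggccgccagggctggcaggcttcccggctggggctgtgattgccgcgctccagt
The TSPAN15 window holds 2 GC boxes, 14 CpG and 67.6% GC, and the TSPAN1 window holds 0 GC boxes, 4 CpG and 51.2% GC, against a median of 11 CpG and 58% GC over 35116 RefSeq windows of the same length. The GC box occurs in 42.6% of those windows. The TSPAN12 window has 8 CpG, 50.8% GC and 0 GC boxes, and the TSPAN13 window has 22 CpG and 3 GC boxes. The TATA box (letters TATAAA) was found on neither strand in any window of the 7 members that matched the table, and occurs in 10.7% of all windows. The same holds for the AP-1 motif (letters TGANTCA), found in 6.6% of all, and for the TCF motif (letters CTTTGAT), found in 2.3%. GGAATG, the core of the TEAD motif, occurs in windows of 2 of the 7 members (TSPAN12 and TSPAN14). CACGTG, the E-box, occurs in windows of 1 of the 7 and the GC box in windows of 5. Over all windows the TEAD core occurs in 11.9% and the E-box in 6.3%. Some members have several windows, so counts of members cannot be set against these shares of single windows. The 2 matches shown do not overlap. A match describes letters, not a bound site.

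TSPAN13, TSPAN3 and TSPAN4 complete the set; TSPAN4 is known from migrasomes, vesicles left behind by migrating cells. TSPAN13 stood at 15.68, 11.34, 14.03 and 40.34 FPKM in KYSE70 and at 115.4, 106.7, 83.19 and 80.07 FPKM in KYSE450. It was lower in KYSE70 by -2.35 (SE 0.33, limma adjusted p 0.0011), although the KYSE70 knockdown library lay above the other 3 of its line. Its knockdown ratio was 2.88 in KYSE70 (2.59 to 3.19) and 0.962 in KYSE450 (0.919 to 1.01). With the GC trend removed the KYSE70 difference of 1.46 was 1.36. TSPAN13 with overexpression stood lower in both lines, at 0.723-fold in KYSE70 and 0.925-fold in KYSE450.

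TSPAN3 was abundant and narrow in range, 162.7 to 216.5 FPKM in KYSE70 against 57.89 to 82.95 in KYSE450, and was higher in KYSE70 by 1.45 (SE 0.11, limma adjusted p 6.73e-05). Within each line its lentiviral arm lay below its plasmid arm, 179.0 and 162.7 against 216.5 and 212.1 FPKM in KYSE70 and 57.89 and 61.83 against 82.95 and 77.17 FPKM in KYSE450. TSPAN4 was lower in KYSE70, from 13.27 to 18.91 FPKM against 25.16 to 32.49 in KYSE450 (difference -0.92, SE 0.16, limma adjusted p 0.00306). TSPAN4 with overexpression stood at 0.979-fold of its control in KYSE70 and 1.02-fold in KYSE450, with counting intervals that include 1. With knockdown it was 0.783-fold its control in KYSE70 and 1.29-fold in KYSE450. The KYSE70 difference of -0.33 was 0.08 with the GC trend removed.

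For NMR overexpression against the plasmid control, 0 of the 10 genes and 0% of all genes passed limma's adjusted threshold, and 1.03% of all genes had an unadjusted p under 0.05. TSPAN12 was the one member among those, with a limma p of 0.0139. The spread behind that p rests in part on the knockdown pairs from which TSPAN12 was chosen, so the p is a description. Of the 10, 5 stood lower in both lines (TSPAN3, TSPAN7, TSPAN12, TSPAN13 and CD151), against 27.6% of all genes, and 2 stood higher in both (TSPAN14 and TSPAN15), against 23.0%. The median fitted difference of the 10 was -0.03, against -0.01 over all genes. Fits of the 4 libraries of this manipulation alone called 12 genes, none of them one of the 10.

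For NMR knockdown against the lentiviral control, 0% of all genes passed limma's adjusted threshold and 12.5% had an unadjusted p under 0.05. The count of 0 was not stable: limma called 37 genes with the 4 libraries of this manipulation fitted alone, and 36 to 4833 in fits without 1 library, the most without the KYSE450 lentiviral control (4832) or the KYSE450 knockdown library (4833). Of the 10 genes, 3 stood higher in both lines (TSPAN7, TSPAN12 and CD9) and 1 lower (TSPAN1), against 27.1% and 25.9% of all genes, and 6 had opposite signs in the 2 lines. TSPAN12 and TSPAN13 stood at least 2-fold higher in KYSE70, as did 1.68% of all genes, and TSPAN12 alone in KYSE450, as did 0.587%. These 2-fold counts are on the log2(FPKM + 1) scale. Since the knockdown values chose TSPAN12, nothing is read from these counts. CD63, a tetraspanin of late endosomes and exosomes outside the 10, showed the same opposite signs as CD151: it was 0.511-fold its control in KYSE70, at 343.9 and 175.8 FPKM, and 1.19-fold in KYSE450, at 276.2 and 327.9 FPKM. Among markers of other cell types, the collagen gene COL3A1 stood at 3.80 FPKM in the lentiviral control and 21.88 with knockdown in KYSE70, and at 0.617 and 2.00 FPKM in KYSE450. The 6 fibroblast markers summed to 39.61 to 52.25 FPKM with knockdown and 32.03 to 33.11 in the lentiviral control, with COL1A2, DCN and PDGFRB under 1 FPKM. The part of these markers, of the mitochondrial share and of base composition in the tetraspanin values was not tested beyond the GC trend given above.

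**Figure D4:**
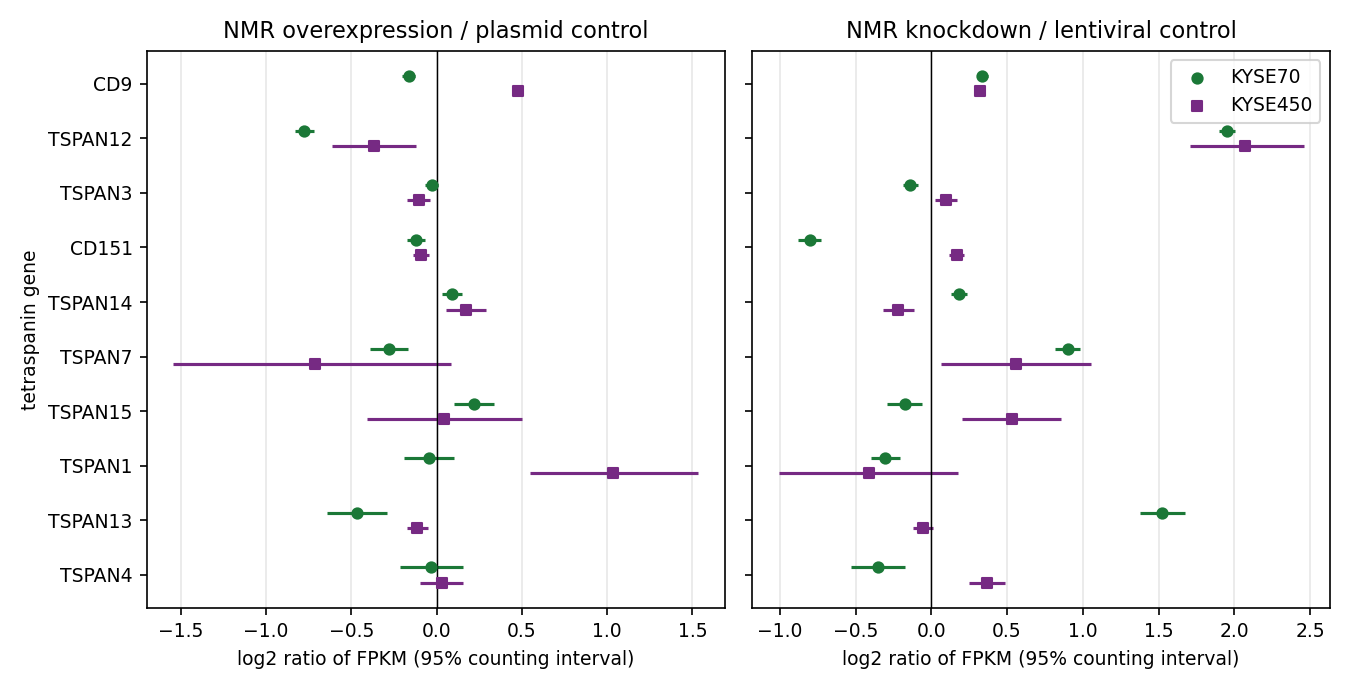
Log2 ratio of FPKM for each of the 10 genes, NMR overexpression over plasmid control on the left and NMR knockdown over lentiviral control on the right; green circles are KYSE70, purple squares are KYSE450, and bars are 95% exact intervals for counting error. TSPAN12 lies at 1.95 and 2.07 with knockdown and left of 0 with overexpression in both lines, while CD151 and TSPAN4 lie on opposite sides of 0 with knockdown.

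The lentiviral control was set against the plasmid control to show how far the controls of the 2 delivery arms differ. Delivery, construct and culture cannot be told apart here, and this comparison shares its control libraries with the 2 before it. None of the 10 genes passed limma's adjusted threshold, as for 0% of all genes. An unadjusted limma p under 0.05 was held by 14.5% of all genes, TSPAN12 and TSPAN3 among them. TSPAN12 was chosen from the knockdown ratio over this lentiviral control, so nothing is read from its values in this comparison. In both lines, 3 of the 10 stood higher (TSPAN7, TSPAN14 and TSPAN15), against 37.1% of all genes, and 4 lower (TSPAN3, TSPAN12, TSPAN13 and CD151), against 24.3%. At least 2-fold differences were seen for TSPAN1 in KYSE70, higher, as for 5.58% of all genes, and for TSPAN12 in KYSE450, lower, as for 3.70%. The median over all genes was 0.12 in KYSE70, so differences in that line are read against it.

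A list of 11 genes of endosome and exosome sorting was included because tetraspanins travel on these vesicles, and 10 were tested. LAMP2 was higher in KYSE70 by 1.23 (SE 0.11) and HGS and RAB27A were lower by -0.85 (SE 0.12) and -0.72 (SE 0.15), with limma adjusted p of 0.000147, 0.000917 and 0.00596. For knockdown 0 of 10 passed, as did 0% of all genes. VPS4B, an ATPase of the sorting machinery, had the smallest p (difference -0.52, SE 0.14, limma adjusted p 0.319). For lentiviral control and knockdown it stood at 28.77 and 21.45 FPKM in KYSE70 and 39.93 and 25.23 FPKM in KYSE450. LAMP2 stood at 84.98 and 119.0 FPKM in KYSE70 and 33.6 and 46.74 FPKM in KYSE450 for the same libraries.

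Genes most like TSPAN12 and TSPAN7 were sought among 10383 genes with a mean of at least 5 FPKM, by Pearson r of log2(FPKM + 1) centred within each line over the 8 libraries. For TSPAN12 they included SUCO (0.982), GLE1 (0.971), CAND1 (0.967) and BACE1 (0.966). For TSPAN7 they were FAM161A (0.990), ZNF468 (0.988), KTN1-AS1 (0.986), OXSM (0.984) and XRCC6BP1 (0.984). The 2 tetraspanins themselves had an r of 0.441, and the 2 lists share no gene. With 8 points that share libraries, depth and base composition, such r values are reached by some of many genes, and they are a description with no p. SUCO, for example, stood at 5.30, 4.55, 4.71 and 7.60 FPKM in KYSE70 and at 11.47, 11.05, 7.11 and 9.87 FPKM in KYSE450, so it had TSPAN12's order of groups in KYSE70 and the same lowest library in KYSE450, at a smaller range.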

How the data were processed

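RNA-seq values of 8 libraries were analysed. The deposited files give 1 value per gene; no header names the unit, which from the values is FPKM, as made by the authors. TopHat2 2.0.9, HTSeq 0.6.1 and hg19 are listed without roles, per the submitters' processing notes; the annotation, the strand setting and whether fragments were counted: not given in the sources used here. Within each of the 30872 genes above 0 in at least 2 libraries (100.0%), values were whole multiples of 1 step, within 0.02, which gave the reads. Where few libraries are above 0, such a step is found for almost any values, so the 100.0% is no check there. The 10 members are above 0 in every library. Genes with a mean of at least 1 FPKM (14311) were fitted as log2(FPKM + 1) with limma 3.58.1 (trend, R 4.3.3), with Benjamini-Hochberg adjustment and a threshold of 0.05. The manipulations were fitted with 4 pair terms, 1 per treated library and its control (2 residual degrees of freedom), and cell line and controls with line and group (3). Replicate numbers mark cell lines, so they pair the libraries; deviations of same-line libraries correlated at 0.805 to 0.971. The fits were tested on simulated data. Ratios of 2 libraries carry exact (Clopper-Pearson) 95% intervals on reads. Coordinates come from GENCODE 29, a different build from the files' hg19, and promoter windows from RefSeq, where 7 of the 10 genes matched. The members, gene lists and tests were chosen with earlier results of these data known. Named are all 10 members, other tetraspanins with a mean of at least 1 FPKM, up to 3 genes per list by p, 8 partners always (ADAM10, ITGB1, ITGA3, ITGA6, FZD4, LRP5, IGSF8 and PTGFRN) and the 5 genes most like TSPAN12 and TSPAN7, of which 1 is not reported here. Alternatives changed the pseudocount, filter, scaling, threshold, block, libraries in the fit and the model (voom on recovered reads), and left out each library; removal of the GC trend, the ITGB4 share, the choice of promoter windows and the 2-fold counts on the log scale were chosen after seeing the data.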

Additional observations from a re-analysis of the deposited data

Results flagged for a closer look

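Within each line, the 4 libraries of each of the 10 genes were screened for a value far from the others, 20 groups in all, and chance alone sets off about 1 in 20. One did: TSPAN12 in the KYSE450 lentiviral control (1.86 FPKM, against 7.68 to 9.91 in the other 3), whose gap to the nearest library was 0.829 of the range on the log2(FPKM + 1) scale, at the critical value of 0.829. This library is the control of the KYSE450 knockdown ratio of 4.21, and the ratio of the same knockdown library to the plasmid control was 0.791. TSPAN12 was chosen from the knockdown values, which rest in part on this library, so the flag is a description.

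Several genes went in opposite directions in the 2 lines, with counting intervals that exclude a ratio of 1 in both. This limit was set after seeing the values and covers counting error only. With knockdown, 27.1% of all genes stood higher in both lines and 25.9% lower in both. With overexpression the shares were 23.0% and 27.6%, so differing signs were common among all genes. The share of all genes that meet the limit was not computed, so nothing is read from the number of genes named here. The difference between the lines was not tested, since a line is not replicated. Changes here are log2(FPKM + 1), KYSE70 first. With overexpression CD9 stood at -0.164 and 0.475. With knockdown TSPAN3 stood at -0.137 and 0.093, TSPAN4 at -0.333 and 0.356, TSPAN14 at 0.181 and -0.207, TSPAN15 at -0.174 and 0.455, and CD151 at -0.796 and 0.166. With the GC trend removed, the KYSE70 values of TSPAN4 and TSPAN15 turned positive (0.078 and 0.086), while those of TSPAN3, TSPAN14 and CD151 kept their sign (-0.12, 0.278 and -0.424).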

How the results depend on the processing

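The count of genes called between the lines stayed within 1.5 times under the alternatives run, and 9 of the 10 genes kept their direction; CD9 ran from -0.18 to 0.18 over fits without 1 library, above 0 without either overexpression library, and was 0 with the GC trend removed. Only CD151 lost its call, as given above. The overexpression count of 0 became 12 with the 4 libraries fitted alone and ran from 0 to 12 over fits that leave out 1 library. Under these alternatives TSPAN4 turned to 0 (median-ratio scaling), -0.01 (GC trend removed) and ran from -0.03 to 0.03 over fits without 1 library. Over those fits TSPAN1 ran from -0.04 to 0.78 and CD9 from -0.16 to 0.47, the low values coming without the KYSE450 plasmid control or overexpression library. The knockdown count of 0 became 3 with a pseudocount of 0.1, 1 at an adjusted p of 0.1, 4 with voom on recovered reads and 37 with the 4 libraries alone. Leaving out 1 library gave 36 to 4833 calls: 36 to 41 without a plasmid or overexpression library, 580 and 582 without a KYSE70 library of the knockdown arm and 4832 and 4833 without a KYSE450 library of that arm, where a lone pair is assumed to vary like the others. TSPAN12 stayed between 1.63 and 1.98 and TSPAN7 between 0.36 and 0.89 in all knockdown alternatives. The count between the controls became 30 at an adjusted p of 0.1, 73 with the controls alone and 0 to 11 over fits without 1 library; over those fits TSPAN4 ran from -0.24 (without the KYSE70 lentiviral control) to 0.46 and CD9 from -0.42 to 0.06 (without the KYSE450 one). The fits with no replicate block and with the replicate block by cell line alone called 0 genes for overexpression and 0 for knockdown. Summing repeated rows left the levels of the members as they were, since no member is repeated. The cause of these shifts was not tested. In KYSE450 the depth limits TSPAN7, TSPAN1, TSPAN15 and TSPAN12 most.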
